A study of Mus musculus with 3 samples.

Results

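Introns carried 5291 of the 19817 distinct genomic regions listed as different in 5-hydroxymethylcytosine (5hmC) between folate-deficient and folate-supplied mouse embryonic stem cells (mESCs). These are the regions that the deposited whole-genome tables class as intron, on chromosomes 1 to 19 without chromosome 8 and without chromosome 1 from 110 to 130 Mb, each position counted once. The cells were the Sv129 mESC line, 1 established line, cultured in serum-containing medium with folate at 0 mg/L (FA0) or at 4 mg/L (FA4). The labels name no genetic change in either group. 5hmC was captured with an antibody from sheared genomic DNA and sequenced (hMeDIP-seq), with 1 captured library for FA0 and 1 for FA4. An FA0 input library belongs to the series, and its values were not used here. With 1 library per condition no difference below has a replicate check, and the tests set 1 library against the other, which is not a test of folate.

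5hmC is made from methylated cytosine by the TET enzymes, and it is both a step in removing methylation and a mark that persists in DNA. In mESCs it is common inside genes, including introns, and around enhancers, many of which lie in introns. Folate feeds the one-carbon cycle that supplies the methyl groups for DNA methylation. An intron region here is named for the gene whose transcript spans it, its host gene, which need not be the gene that such a site acts on. The study asked how loss of folate changes 5hmC, in connection with closure of the neural tube.

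A few of the regions overlapped a window around an annotated start site, mostly that of another gene than the host, and only for these was sequence at hand. RefSeq (GRCm38.p6, the build of the mm10 coordinates in the tables) gives a window of 250 bases before to 50 after the start of each gene. Of the 5291 intron regions 17 overlapped such a window, and 7 held a whole one on the chromosomes printed here. The overlap was as small as 3 bp in Ank and 8 bp in Tmem94, so a region over a window need not reach the start itself. The 5 whole windows below include those with the most and the fewest CpG sites, and with the partial Akap9 window they cover both directions. They were chosen after their values were seen. CpG sites, the letters CG and the usual place of 5hmC, are in capitals, each sequence reads 5′ to 3′ on the strand of the start site, and the part shown lies inside the intron region.
Bcl3 (start of Gm16174, chr7:19816335-19816634, plus strand): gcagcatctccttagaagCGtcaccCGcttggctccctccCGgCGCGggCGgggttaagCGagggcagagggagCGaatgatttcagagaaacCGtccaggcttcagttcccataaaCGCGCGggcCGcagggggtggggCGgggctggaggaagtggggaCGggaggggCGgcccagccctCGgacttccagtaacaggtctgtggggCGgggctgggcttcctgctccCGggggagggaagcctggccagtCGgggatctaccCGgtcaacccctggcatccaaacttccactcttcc
Slc6a9 (its own inner start, chr4:117849100-117849399, plus strand): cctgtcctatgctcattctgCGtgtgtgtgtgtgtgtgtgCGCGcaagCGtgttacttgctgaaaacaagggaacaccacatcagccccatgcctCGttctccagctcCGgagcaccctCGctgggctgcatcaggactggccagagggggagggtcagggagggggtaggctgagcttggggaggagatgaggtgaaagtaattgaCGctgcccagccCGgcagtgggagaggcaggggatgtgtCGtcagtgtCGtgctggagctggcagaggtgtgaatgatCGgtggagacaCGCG
Dopey2 (now Dop1b, its own inner start, chr16:93729849-93730148, plus strand): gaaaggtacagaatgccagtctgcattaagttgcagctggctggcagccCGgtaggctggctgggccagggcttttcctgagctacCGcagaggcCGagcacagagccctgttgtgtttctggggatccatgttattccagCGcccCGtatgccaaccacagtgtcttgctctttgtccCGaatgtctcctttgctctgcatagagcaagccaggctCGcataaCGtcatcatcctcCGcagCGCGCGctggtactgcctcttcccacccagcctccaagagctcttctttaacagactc
Foxn3 (start of Gm46371, chr12:99330636-99330935, minus strand): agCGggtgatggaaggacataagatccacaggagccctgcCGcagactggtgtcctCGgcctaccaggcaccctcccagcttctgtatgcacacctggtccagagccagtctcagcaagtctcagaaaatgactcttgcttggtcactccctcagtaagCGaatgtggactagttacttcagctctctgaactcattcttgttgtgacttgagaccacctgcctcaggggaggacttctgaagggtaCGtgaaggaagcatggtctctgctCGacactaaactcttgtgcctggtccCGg
Abhd2 (start of Gm39041, chr7:79298700-79298999, plus strand): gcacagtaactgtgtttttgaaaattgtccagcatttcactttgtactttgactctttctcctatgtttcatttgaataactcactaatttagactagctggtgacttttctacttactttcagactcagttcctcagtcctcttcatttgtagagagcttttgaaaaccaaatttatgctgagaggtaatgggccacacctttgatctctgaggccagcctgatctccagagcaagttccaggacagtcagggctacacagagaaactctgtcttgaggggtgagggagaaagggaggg
Akap9 (part of the start of Gm40260, chr5:4077155-4077300, minus strand): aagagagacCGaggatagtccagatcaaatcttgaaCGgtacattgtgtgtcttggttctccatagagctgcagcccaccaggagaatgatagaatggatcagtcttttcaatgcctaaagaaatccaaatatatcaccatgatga

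The Bcl3 window held 21 CpG sites, the Slc6a9 window 14, the Dopey2 window 12, the Foxn3 window 7, and the Abhd2 window 0. The whole windows not shown, in Sp2 and Tmem30c, held 3 and 5 CpG sites, and both lay in FA0-higher regions. Over all 32851 RefSeq windows of this length the median was 7, and 94.6% held at least 1. Slc6a9 encodes a glycine transporter, and its region held 24 FA0 reads and 4 FA4 reads, a ratio of 8 (95% interval 2.75 to 31.7). Bcl3, a partner of NF-kappaB, had 28 FA0 reads and 9 FA4 reads, a ratio of 4.15 (1.9 to 9.99). The Dopey2 region held 23 FA0 reads and 6 FA4 reads, and the region in Foxn3, a forkhead factor gene, held 23 FA0 reads and 3 FA4 reads. In Abhd2, a lipase gene, 1 FA0 read stood against 19 FA4 reads, a ratio of 0.0702 (0.00169 to 0.441), and the exact test described below was not passed. Akap9, an anchoring protein of the centrosome, held 0 FA0 reads and 20 FA4 reads, at least 5-fold lower in FA0. The 17 intron regions over a start-site window comprised 15 FA0-higher and 2 FA4-higher ones, and 12 of the 17 passed the exact test. Of all intron regions 74.6% of the FA0-higher, 23.6% of the FA4-higher and 46.6% of both together passed. Since 15 of the 17 were FA0-higher, the 74.6% is the nearer comparison. Within the same chromosome limits 226 promoter regions overlapped a window and 70.8% of those were higher in FA0. The share was 59.6% for 47 intergenic regions over a window, and 31.2% for 16 upstream ones.

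Ratios here and below are of normalized read counts, FA0 over FA4. The authors scaled each library by 1 factor, so that 1 FA0 read counts 1.15 and 1 FA4 read 0.866, and whole reads were recovered by dividing. Intervals are exact at the 95% level and cover counting error only, because there is 1 library per condition. They treat each read as a separate molecule, so any PCR copies left among the reads would make them too narrow. Where a library had 0 reads, the fold is given against a floor of 3 reads and is written as at least that value. Such a value leaves out counting error in the higher library. It is therefore not an interval limit and should not be compared with the lower limits of the intervals. All regions had already passed a threshold in these same libraries, so ratios tend to be too large.

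The intron regions divided into 2377 higher in FA0 and 2914 higher in FA4, a share of 44.9% (43.6% to 46.3%) for FA0. Over all 19817 listed regions the share was 38.9%. Every listed region had p of at most 1e-04 in a likelihood-ratio test (G-test) recomputed from its pair of normalized counts, and a fold of at least 2. Against 0 reads in the other library this took 10 FA0 reads or 13 FA4 reads. An exact binomial test on the recovered reads at the same p was stricter, and took 11 FA0 reads or 17 FA4 reads against 0. It was passed by 1774 intron regions higher in FA0, 33.5% of the 5291, where 29.0% of all listed regions passed in that direction. It was passed by 689 intron regions higher in FA4, or 13%, where 16.0% of all listed regions did. Intron regions with 0 reads in the other library that lay between these minimums, and so could not pass, numbered 305 FA0-higher and 1913 FA4-higher. Among intron regions past the exact test 72.0% (70.2% to 73.8%) were therefore higher in FA0, so the majority direction depended on the test.

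The directions differed in how their reads were spread. Among regions higher in FA0 the medians were 16 FA0 reads, 1 FA4 read and a length of 760 bp, and 789 (33.2%) held 0 FA4 reads. Among regions higher in FA4 the medians were 0 FA0 reads, 15 FA4 reads and 1020 bp, and 2407 (82.6%) held 0 FA0 reads. Exactly 13 FA4 reads against 0 FA0 reads, the least that could be listed, were found in 823 regions, and exactly 10 FA0 reads against 0 FA4 reads in 305. At 20 or more reads in the higher library there were 793 FA0-higher and 561 FA4-higher regions. At 20 or more normalized counts there were 1009 FA0-higher and 245 FA4-higher regions. In all, FA0-higher regions held 41951 FA0 reads and 6021 FA4 reads, and FA4-higher regions held 1128 FA0 reads and 49416 FA4 reads. The library totals were not used here, so these sums are not a depth.

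**Figure D1:**
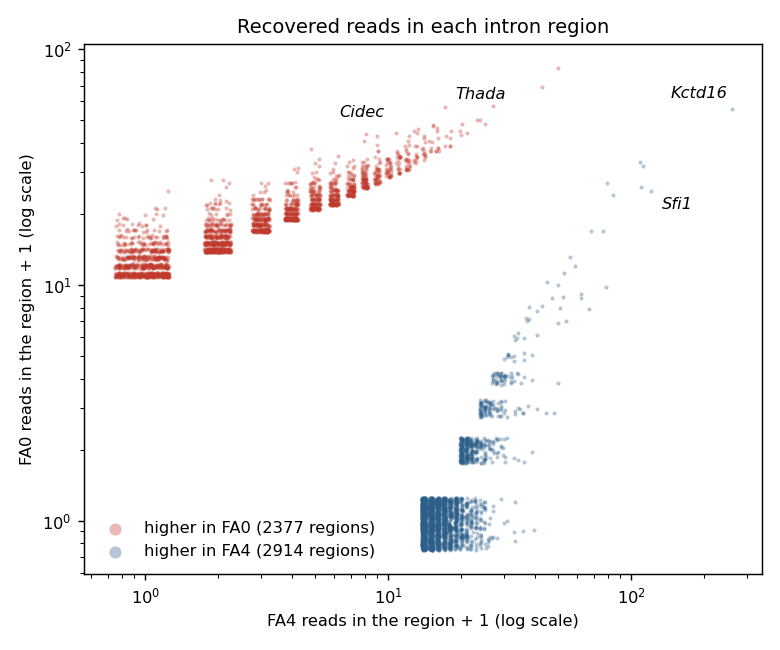
Reads recovered in each of the 5291 intron regions, FA0 reads on the vertical axis against FA4 reads on the horizontal axis, both plus 1 on log scales, 1 point per region, with points spread slightly sideways and upwards so that equal values can be seen. FA0-higher regions (red) begin at 10 FA0 reads and FA4-higher regions (blue) at 13 FA4 reads, and most blue points stand at 0 FA0 reads.

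Kctd16, an auxiliary subunit of GABA-B receptors, held the region with the most reads (chr18:40308021-40308260). It carried 55 FA0 reads and 258 FA4 reads within 240 bp, a ratio of 0.284 (0.208 to 0.382), and its exact p of 2.42e-21 was the smallest. Sfi1, a centrosome protein that binds centrin, held 3 of the 5 regions with the most reads (chr11:3163801-3168400). The strongest of these had 24 FA0 reads and 120 FA4 reads, a ratio of 0.267 (0.164 to 0.416). The others in Sfi1 had 31 FA0 reads and 111 FA4 reads, and 32 FA0 reads and 108 FA4 reads. The fifth, in Aida (chr1:183299021-183299320), held 25 FA0 reads and 109 FA4 reads within 300 bp, a ratio of 0.306 (0.190 to 0.476). All 5 were higher in FA4 although none lacked FA0 reads, unlike most FA4-higher regions. They were 240 to 760 bp long, against a median of 1020 bp over FA4-higher regions. The input library was not set beside them. The sources used here do not give how reads matching several places in the genome were placed, and its part in these counts was not tested.

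Of the FA0-higher intron regions, that with the smallest exact p lay in Cidec, which encodes a lipid droplet protein (chr6:113431321-113433400). It held 43 FA0 reads and 7 FA4 reads, a ratio of 8.19 (3.65 to 21.6), with an exact p of 3.65e-10. Tns3, the focal adhesion protein tensin 3, followed with 37 FA0 reads and 4 FA4 reads (chr11:8515461-8517100), a ratio of 12.3 (4.43 to 47.6). Shank2, a scaffold of excitatory synapses, held 24 FA0 reads and 0 FA4 reads (chr7:144357521-144359060), at least 10.7-fold higher in FA0. Trio, an activator of small GTPases, and Celf4, an RNA-binding protein of neurons, each held 27 FA0 reads and 1 FA4 read, a ratio of 36.0 (5.93 to 1474). These intervals are wide because they rest on a single FA4 read. Thada had the most FA0 reads of the 12, with 56 FA0 reads and 16 FA4 reads, a ratio of 4.67 (2.64 to 8.72).

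The other named FA0-higher regions lay in genes of several kinds. Cacna1d, a subunit of L-type calcium channels, held 40 FA0 reads and 7 FA4 reads. Kcnn4, a calcium-activated potassium channel, held 33 FA0 reads and 4 FA4 reads, and the Notch2 receptor gene 25 FA0 reads and 1 FA4 read. Ptp4a3, a tyrosine phosphatase, held 42 FA0 reads and 8 FA4 reads. Pld5, of the phospholipase D family, had 26 FA0 reads and 1 FA4 read, and Anapc7, a subunit of the anaphase-promoting complex, 30 FA0 reads and 3 FA4 reads. The exact p of these 12 regions ran from 3.65e-10 to 1e-08. Their place in the gene varied, since the Thada region lay 3.27 kb from the start site and the Celf4 region 262 kb from it.

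Besides Kctd16, Sfi1 and Aida, the FA4-higher regions with the smallest exact p, leaving out hosts with predicted or clone names, were mostly empty in FA0. Zfp600, a zinc-finger gene, had the most FA0 reads of the rest, with 7 FA0 reads and 66 FA4 reads (chr4:146166101-146167780), a ratio of 0.141 (0.0547 to 0.308). This region lies in the stretch of chromosome 4 from 145 to 149 Mb, and the limit on read placement given below for that stretch applies to it. Itln1, an intestinal lectin, Fam19a4 (now Tafa4), a secreted neuronal protein, and Immp2l, a mitochondrial peptidase, each had 0 FA0 reads and 32 FA4 reads. Each was at least 8-fold lower in FA0. Lhfp had 0 FA0 reads and 30 FA4 reads, Adcy9, an adenylyl cyclase, 0 FA0 reads and 29 FA4 reads, and Frmd4b 0 FA0 reads and 28 FA4 reads. Slitrk5, a transmembrane protein of neurons, held 1 FA0 read and 35 FA4 reads, and Ing3, a subunit of a histone acetyltransferase complex, 1 FA0 read and 33 FA4 reads. The exact p of these 12 ran from 2.42e-21 to 1.94e-07.

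At the other end were the regions just inside the threshold. In Lactb2 and Kcnb2, 10 FA0 reads stood against 0 FA4 reads. In Sntg1 and Ppp1r42, 0 FA0 reads stood against 13 FA4 reads. None of these 4 passed the exact test, with p of 0.000209 for the FA0-higher pair and 0.000994 for the FA4-higher pair.

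Compared with other sequence, introns stood between promoters and intergenic DNA. Against 44.9% in introns, the share higher in FA0 was 61.5% in 883 promoter regions (58.2% to 64.7%) and 62.1% in 393 exon regions with the same chromosome limits. Upstream regions had 47.7% of 2357, and intergenic regions 32.3% of 8248 (31.2% to 33.3%). The intron share exceeded the intergenic share by 12.7 percentage points. It did so on each of the 18 chromosomes, by 7.18 points on chromosome 16 at the least and 19.4 points on chromosome 19 at the most. Among regions past the exact test the shares were 72.0% in introns and 58.1% in intergenic sequence. No test of this difference was run, since all regions lie in the same 2 libraries.

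The share higher in FA0 was lower in longer host genes. Length was taken from the transcript start and end in the tables. In host genes under 10 kb 55.5% of 110 intron regions were higher in FA0, and in those of 10 to 50 kb 55.6% of 1202 (52.7% to 58.4%). The share was 48.6% of 940 regions at 50 to 100 kb and 45.4% of 1645 at 100 to 300 kb. In host genes of 300 kb and over it was 31.9% of 1394 regions (29.4% to 34.4%), near the intergenic share. Only the class of 300 kb and over lay clear of all the others in its interval. Past the exact test the shares in the same order of length were 78.8%, 80.0%, 73.2%, 72.3% and 60.1%. Median region length was 820 bp in hosts of 10 to 50 kb and 1000 bp in those of 300 kb and over.

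**Figure D2:**
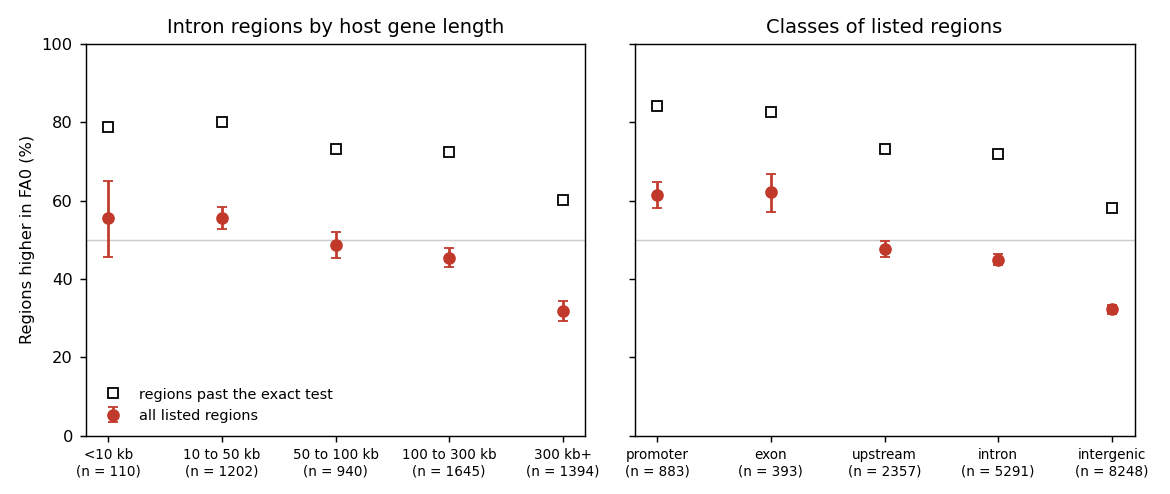
Percentage of listed regions higher in FA0, at left for intron regions by length of the host gene and at right for all classes of regions with the same chromosome limits. Filled points are all listed regions with exact 95% intervals, open squares the regions past the exact test, and n is the number of listed regions. The share falls to 31.9% in host genes of 300 kb and over, against 55.6% at 10 to 50 kb.

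Counted per length of gene, FA4-higher regions were denser in each longer class, while FA0-higher regions were densest in genes of 10 to 50 kb. Across 19573 protein-coding genes of RefSeq within the chromosome limits, those under 10 kb held 1.54 FA0-higher and 1.33 FA4-higher intron regions per Mb of gene. Genes of 10 to 50 kb held 3.00 FA0-higher and 2.28 FA4-higher regions per Mb. Genes of 50 to 100 kb held 2.80 and 2.91 per Mb, FA0-higher before FA4-higher, and genes of 100 to 300 kb held 2.70 and 3.08. In the 497 genes of 300 kb and over the density was 1.66 FA0-higher and 3.39 FA4-higher regions per Mb. Of these 497 genes 78.9% carried at least 1 intron region, against 11.5% of the 8091 genes of 10 to 50 kb. Gene span counts exons and introns together and overlapping genes each in full.

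**Figure D3:**
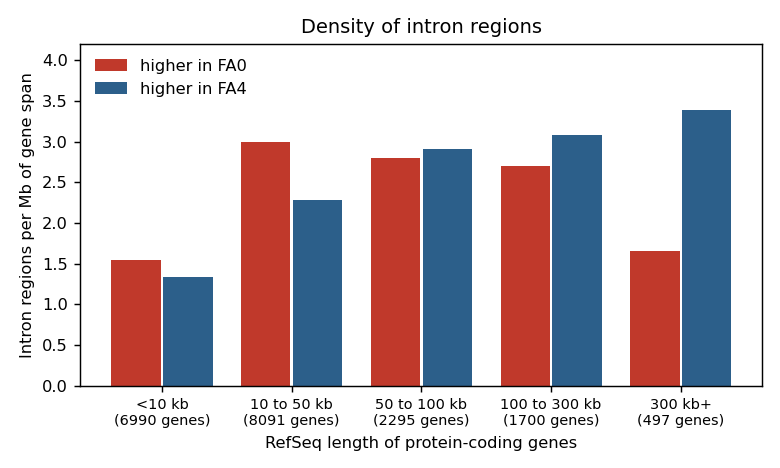
Intron regions per Mb of gene span for protein-coding genes grouped by RefSeq length, with FA0-higher regions as red bars and FA4-higher regions as blue bars. FA0-higher density is 3.00 per Mb in genes of 10 to 50 kb and 1.66 in those of 300 kb and over, while FA4-higher density is 2.28 and 3.39.

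The share also fell with distance from the start site, but hardly so among hosts of like length. Of 396 regions under 5 kb from the start 53.5% were higher in FA0, of 1240 at 5 to 20 kb 51.9%, of 1996 at 20 to 100 kb 45.4%, and of 1659 at 100 kb and over 37.1%. Within host genes of 100 to 300 kb, 50% of 192 regions at 5 to 20 kb and 47.5% of 545 at 100 kb and over were higher in FA0. Within those of 300 kb and over, the shares were 35.2% of 54 and 32.0% of 1114. Position from start to end of the gene made little difference. With each host cut into 5 equal parts from start to end, the shares were 43.1%, 44.4%, 45.5%, 44.6% and 47.8%. The intervals overlapped, with 40.1% to 46.1% in the first part and 44.3% to 51.4% in the last.

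Chromosomes differed in the same measure. Chromosome 11 had the highest share, with 55.4% of 350 intron regions (50.1% to 60.7%) higher in FA0, and chromosome 14 the lowest, with 34.9% of 252 (29.0% to 41.2%). The median host gene was 101 kb long on chromosome 11 and 279 kb on chromosome 14. Chromosomes 3 and 1 were also low, at 35.1% and 36.4%, with median host genes of 120 kb and 130 kb, near the 127 kb over all intron regions. Density ran from 1.53 intron regions per Mb on chromosome 3 to 2.87 on chromosomes 11 and 19.

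The 5291 regions lay in 3102 host genes, of which 2029 had 1 region and 1073 had at least 2. Of these 1073 genes 518 held both directions, 230 held FA0-higher regions alone and 325 FA4-higher regions alone. The genes with the most regions were long. Fhit, a diadenosine triphosphate hydrolase gene that spans a known fragile site, had 17 regions, 4 higher in FA0 and 13 in FA4. Ctnna3, an alpha-catenin of cell junctions, had 12, with 4 higher in FA0 and 8 in FA4. Genes with 11 regions each included Agbl4 (2 higher in FA0 and 9 in FA4), Magi2 (3 and 8), Ptprt (3 and 8) and Rbfox1 (1 and 10). Adarb2 had 10, of which 1 was higher in FA0. Of the 29 genes with at least 8 regions, leaving out Gm13152 below, 25 had more FA4-higher regions and 4 had more FA0-higher ones.

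In Rbfox1, a neuronal splicing factor gene, the FA0-higher region held 16 FA0 reads and 1 FA4 read (chr16:6135401-6136260). Its 10 FA4-higher regions had 0 FA0 reads and 13 to 18 FA4 reads. In Ptprt, a receptor phosphatase gene, the 3 FA0-higher regions were those nearest the start, within 122 kb of it, with 14, 13 and 11 FA0 reads and 1, 1 and 0 FA4 reads. Its 8 FA4-higher regions lay from 215 to 870 kb from the start. The exact test was passed by 2 of the 10 FA4-higher regions in Rbfox1 and by 2 of the 8 in Ptprt.

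Among genes with at least 8 regions, Sdk1 and Asic2 went the other way most strongly. They were picked out after their values were seen, and long genes with fewer regions, such as Thsd4 below, also went that way. Sdk1, a synaptic adhesion protein gene of 972 kb, had 8 regions higher in FA0 and 2 in FA4. The one with the smallest exact p held 26 FA0 reads and 4 FA4 reads (chr5:142056941-142057740), a ratio of 8.67 (3.01 to 34.2). All 8 lay 539 kb or more from the start, and 7 of them passed the exact test. Asic2, an acid-sensing ion channel gene of 1088 kb, had 7 higher in FA0, with 11 to 20 FA0 reads and 0 to 3 FA4 reads, and 2 higher in FA4. The remaining genes with at least 8 regions and more of them higher in FA0 were Nfia and Utrn, each with 5 such regions.

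Some genes held a single direction throughout. Of 252 genes with at least 4 regions, 21 had FA0-higher regions alone and 46 had FA4-higher regions alone. The 21 genes had a median length of 191 kb and 74 of their 101 regions passed the exact test, and the 46 had a median of 413 kb and 70 of 252 passed. Over all intron regions 74.6% of the FA0-higher and 23.6% of the FA4-higher ones passed. Tns3, of 233 kb, and Thsd4, of 544 kb, each had 7 regions, all higher in FA0. In Tns3 the FA0 reads were 25, 17, 37, 10, 30, 25 and 13 along the chromosome, and the FA4 reads of the same regions were 7, 2, 4, 0, 10, 6 and 1. In Vav2, an exchange factor for small GTPases, all 6 were higher in FA0, with 13 to 36 FA0 reads and 0 to 14 FA4 reads. Grm4, a metabotropic glutamate receptor gene, had 5 of 5 higher in FA0, with 15 to 37 FA0 reads and 1 to 15 FA4 reads. Grm7, a gene of the same receptor family but 922 kb long, had 7 of 7 higher in FA4, with 0 FA0 reads and 13 to 16 FA4 reads, and none passed the exact test. Ctnna2, Nrxn3 and Hs3st4 each had 8 of 8 higher in FA4, of which 2, 0 and 1 passed the exact test.

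**Figure D4:**
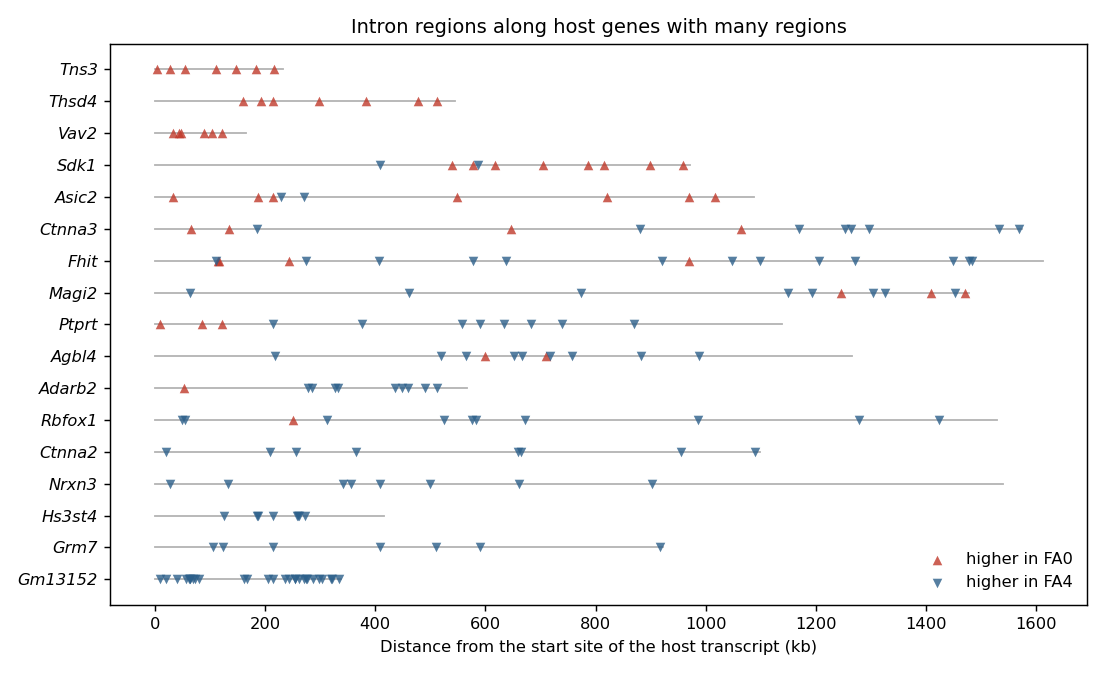
Intron regions along 17 host genes, each drawn as a grey line over the length of its longest listed transcript, by distance in kb from the transcript start. Red triangles pointing up are regions higher in FA0 and blue triangles pointing down regions higher in FA4. Tns3, Thsd4 and Vav2 hold red triangles alone, Sdk1 and Asic2 mostly red, and Rbfox1 and Grm7 mostly or only blue.

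Gm13152, renamed Zfp982 in RefSeq and a zinc-finger gene, had the most regions of any host gene. It carried 28 intron regions, all higher in FA4, over a transcript span of 338 kb on chromosome 4, and 19 of them passed the exact test. Its strongest by ratio among those with FA0 reads held 1 FA0 read and 26 FA4 reads, and the one with most reads held 23 FA0 reads and 83 FA4 reads. RefSeq gives the gene a span of 73.0 kb, within which 9 of the 28 regions lie, so the host named in the table does not hold for the other 19. The 1-Mb window from 147 to 148 Mb of chromosome 4 held 37 intron regions, 0 higher in FA0 and 37 in FA4, and the next densest window of all held 14. From 145 to 149 Mb there were 5 FA0-higher and 53 FA4-higher regions. This stretch holds a family of related zinc-finger genes, and the sources used here do not give how reads matching several copies were placed. Without it 45.3% of intron regions were higher in FA0.

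Neighbouring regions in 1 gene shared a direction in about the same proportion within each distance limit, though closer pairs are counted again within the wider limits. Of 672 neighbouring pairs at most 20 kb apart in 1 host gene, 447 (66.5%, 62.8% to 70.1%) had the same direction, 199 both higher in FA0 and 248 both higher in FA4. At most 2 kb apart it was 70 of 106 pairs (66.0%), and at most 100 kb apart 1109 of 1708 (64.9%). No test was run, and no value for chance was computed. Overlapping intron regions formed 6 pairs, and 5 of these were of opposite direction. In Fgf12 a region with 0 FA0 reads and 16 FA4 reads (chr16:28265961-28266600) overlapped one with 13 FA0 reads and 1 FA4 read (chr16:28266461-28267160), and neither passed the exact test. In Maml3 (chr3:51728301-51730640) 15 FA0 reads and 0 FA4 reads lay within 1 kb of 0 FA0 reads and 17 FA4 reads, and both passed the exact test.

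Direction within introns also followed the promoter of the same gene, where that promoter was itself listed. In 94 host genes whose promoter region was higher in FA0 there were 92 FA0-higher and 54 FA4-higher intron regions, a share of 63.0% (54.6% to 70.8%). In 72 host genes whose promoter region was higher in FA4, the numbers were 28 and 94, or 23.0% (15.8% to 31.4%). Leaving out intron regions within 10 kb of the start gave 63.3% and 19.8%. Promoter and intron values come from the same 2 libraries, and regions of 1 gene share their surroundings. No test was run.

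Genes of cell signalling were divided between pathways by their listed regions, where the share over all intron regions was 44.9%. Past the exact test the FA0-higher share was 90% for Wnt, 94.4% for BMP and TGF-beta, 75% for Notch and 66.7% for FGF. Over all intron regions it was 72.0%. The Wnt pathway had 35 intron regions in 20 of 88 listed genes, 22 higher in FA0 and 13 in FA4. Its median log2 ratio was 2.08, against -3.02 over all intron regions (normalized counts plus 1). Since no region with a fold under 2 is listed, such a median only follows which direction holds the majority. For each gene named from a list the region with the smallest exact p in that direction is given first, and some genes also hold the other direction. Celsr1, a planar polarity cadherin, had 3 regions, all higher in FA0. The strongest held 33 FA0 reads and 7 FA4 reads (chr15:85921001-85923040), a ratio of 6.29 (2.73 to 16.8). Apc, of the complex that degrades beta-catenin, held 17 FA0 reads and 1 FA4 read in the stronger of 2 FA0-higher regions. The co-receptor gene Lrp5 held 14 FA0 reads and 0 FA4 reads, at least 6.22-fold higher in FA0, and it also had a second FA0-higher region (13 FA0 reads and 1 FA4 read) and an FA4-higher one (0 FA0 reads and 15 FA4 reads). Lrp6, its close relative, held 0 FA0 reads and 23 FA4 reads (chr6:134512001-134513600), at least 5.75-fold lower in FA0. Ryk, a Wnt receptor, had 3 FA0 reads and 28 FA4 reads, and the corepressor gene Tle4 1 FA0 read and 21 FA4 reads. The Tle4 region and the further Lrp5 regions did not pass the exact test.

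The BMP and TGF-beta pathway had 20 regions higher in FA0 and 12 in FA4, in 22 genes. The ligand gene Bmp6 held 20 FA0 reads and 1 FA4 read, and its relative Bmp7 held 14 FA0 reads and 0 FA4 reads. Skil, an inhibitor of SMAD proteins, held 17 FA0 reads and 1 FA4 read. Smad4, the shared SMAD, held 0 FA0 reads and 18 FA4 reads, at least 4.5-fold lower in FA0. Fstl4 and the co-receptor gene Tgfbr3 held 0 FA0 reads with 16 and 15 FA4 reads, and neither passed the exact test. In the Notch list 7 of 10 regions were higher in FA0 (70%, with a wide interval of 34.8% to 93.3%). Both regions of the receptor gene Notch2 were, with 25 FA0 reads and 1 FA4 read in one and 22 FA0 reads and 5 FA4 reads in the other. Aph1b, of the gamma-secretase complex, held 0 FA0 reads and 17 FA4 reads, and Mfng, a modifier of Notch, 0 FA0 reads and 14 FA4 reads. The Aph1b region passed the exact test and the Mfng region did not.

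Hedgehog signalling acts in the patterning of the neural tube, and its list had the lowest share of the 15 lists, with 6 of 23 regions (26.1%, 10.2% to 48.4%) higher in FA0. Past the exact test there were 6 FA0-higher and 5 FA4-higher regions, a share of 54.5% where all intron regions had 72.0%. The ligand gene Dhh held 41 FA0 reads and 15 FA4 reads. Of the ubiquitin ligase genes, Btrc held 16 FA0 reads and 0 FA4 reads and Smurf1 held 19 FA0 reads and 3 FA4 reads. Btrc also had 2 FA4-higher regions, and Smurf1 had 1. Gli3, a transcription factor of the pathway, had 2 regions, with 0 FA0 reads and 18 FA4 reads in one and 1 FA0 read and 24 FA4 reads in the other (chr13:15556761-15558220). The second had a ratio of 0.0556 (0.00135 to 0.341). Spop, a ubiquitin ligase adaptor that acts on Gli proteins, had 3 FA4-higher regions, with 0 FA0 reads in each and 24, 15 and 13 FA4 reads. Only the Spop region with 24 FA4 reads passed the exact test. Csnk1a1, a casein kinase, held 0 FA0 reads and 19 FA4 reads. In the FGF list 6 of 18 regions were higher in FA0, among them those of the feedback inhibitor gene Spry2 (14 FA0 reads and 0 FA4 reads), Etv5 (18 and 2) and the receptor gene Fgfr2 (19 and 3). Spred1, a Ras pathway inhibitor, held 0 FA0 reads and 22 FA4 reads, Fgf12 0 FA0 reads and 18 FA4 reads, and Fgf14 0 FA0 reads and 16 FA4 reads. The Fgf14 region did not pass the exact test. Of the 12 FA4-higher regions in the FGF list, the long genes Fgf12 (595 kb) and Fgf14 (699 kb) held 6 and 2. Fgf12 also had 1 FA0-higher region.

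Among all listed regions the neuronal gene lists lay below the share of all intron regions, but among regions past the exact test not all did. There the FA0-higher share was 53.8% for synaptic adhesion, 60% for axon guidance, 73.3% for ion channels and 81.8% for neurotransmitter receptors, against 72.0% for all intron regions. Of 248 regions in 54 cadherin and synaptic adhesion genes, 71 (28.6%, 23.1% to 34.7%) were FA0-higher and 177 FA4-higher. The median host gene over these regions was 877 kb, against 127 kb over all intron regions. In adhesion genes of 300 kb and over 23.9% of 213 regions (18.4% to 30.3%) were higher in FA0, and in other host genes of that length 33.3% of 1181 (30.6% to 36.0%). In adhesion genes under 300 kb 57.1% of 35 were. Negr1, an immunoglobulin-type adhesion gene, held 22 FA0 reads and 1 FA4 read, a ratio of 29.3 (4.74 to 1211), and Sdk2 20 FA0 reads and 1 FA4 read. Cdh9 held 0 FA0 reads and 23 FA4 reads, Cntn5 1 FA0 read and 27 FA4 reads, and Cntnap2 0 FA0 reads and 20 FA4 reads. Negr1 had 2 regions in each direction, Sdk2 had 5 FA0-higher and 1 FA4-higher, and Cntnap2 had 2 and 8.

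Voltage-gated ion channels had 30 of 87 regions higher in FA0, neurotransmitter receptors 23 of 63, and axon guidance genes 28 of 78. Among potassium channels, Kcna6 held 31 FA0 reads and 7 FA4 reads, while Kcnab1 held 0 FA0 reads and 25 FA4 reads. Among calcium channels, Cacna1e held 1 FA0 read and 25 FA4 reads and Cacna2d1 2 FA0 reads and 28 FA4 reads. Of the receptor genes Gabbr2 held 21 FA0 reads and 2 FA4 reads, and Grik4 35 FA0 reads and 10 FA4 reads. Gabra5 held 0 FA0 reads and 18 FA4 reads. Of the guidance genes Ephb2 held 42 FA0 reads and 13 FA4 reads, Slit3 26 FA0 reads and 4 FA4 reads, and Plxna1 38 FA0 reads and 12 FA4 reads. Sema6d held 0 FA0 reads and 26 FA4 reads, Robo1 0 FA0 reads and 24 FA4 reads, and Ntng1 1 FA0 read and 25 FA4 reads. Slit3 had 3 FA0-higher and 6 FA4-higher regions in all, and Robo1 had 1 and 4.

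Among genes that make, remove or read DNA methylation, 6 carried 7 intron regions, 4 higher in FA0 and 3 in FA4. Each of the 3 dioxygenase genes that make 5hmC carried a region. Tet1 held 12 FA0 reads and 0 FA4 reads (chr10:62825561-62826200), at least 5.33-fold higher in FA0. Tet3 held 14 FA0 reads and 0 FA4 reads (chr6:83426221-83427240), at least 6.22-fold higher in FA0. Tet2 had 2 regions, each with 0 FA0 reads and with 14 and 13 FA4 reads, and neither passed the exact test. Smug1, a uracil glycosylase, held 22 FA0 reads and 4 FA4 reads, Zbtb38, a reader of methylated DNA, 11 FA0 reads and 0 FA4 reads, and Mbd5 0 FA0 reads and 13 FA4 reads. The Mbd5 region did not pass the exact test.

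Folate and one-carbon metabolism had 11 regions in 8 of 50 listed genes, 7 higher in FA0 and 4 in FA4, and 4 of the 11 passed the exact test, which 46.6% of all intron regions did. Sardh, which oxidises sarcosine and yields a folate-bound one-carbon unit, had 3 regions, all higher in FA0, with 13, 13 and 26 FA0 reads and 1, 1 and 5 FA4 reads. Mtrr, which keeps methionine synthase active, held 26 FA0 reads and 7 FA4 reads (chr13:68562821-68563780), a ratio of 4.95 (2.09 to 13.5). Aldh1l1, a formyltetrahydrofolate dehydrogenase, held 17 FA0 reads and 2 FA4 reads. Ahcyl1, related to the enzyme that clears S-adenosylhomocysteine, held 0 FA0 reads and 18 FA4 reads, at least 4.5-fold lower in FA0. Ftcd, of histidine breakdown, held 1 FA0 read and 21 FA4 reads. Mthfd2l had a region in each direction, with 16 FA0 reads and 2 FA4 reads in one and 0 FA0 reads and 15 FA4 reads in the other. The regions of Mthfd2l and Ftcd and the Sardh regions with 13 FA0 reads did not pass the exact test.

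The list of neural tube closure and planar polarity genes had 30 of 56 regions (53.6%, 39.7% to 67.0%) higher in FA0, with Grhl2, an epithelial transcription factor gene, at 22 FA0 reads and 3 FA4 reads. Past the exact test it had 26 FA0-higher and 5 FA4-higher regions, a share of 83.9% where all intron regions had 72.0%. Pluripotency genes had 7 of 12 higher in FA0. Esrrb held 29 FA0 reads and 4 FA4 reads (chr12:86435361-86436260), a ratio of 9.67 (3.39 to 37.8), and Mycn 23 FA0 reads and 5 FA4 reads. Jarid2, a Polycomb partner, had 7 regions, 2 FA0-higher and 5 FA4-higher. Extracellular matrix and integrin genes had 36 of 63 higher in FA0. Spock1 held 30 FA0 reads and 3 FA4 reads, Col15a1 21 FA0 reads and 1 FA4 read, and Hspg2, the proteoglycan perlecan, 21 FA0 reads and 2 FA4 reads in 1 of its 4 FA0-higher regions. Col22a1 held 0 FA0 reads and 22 FA4 reads, and Lama2 and Gpc6 each 0 FA0 reads and 20 FA4 reads. In all Spock1 had 3 FA0-higher and 4 FA4-higher regions, and Gpc6 had 4 and 2.

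Chromatin modifiers and remodelers had 22 of 58 regions (37.9%, 25.5% to 51.6%) higher in FA0. Smyd3, a lysine methyltransferase gene, led in both directions, with 33 FA0 reads and 9 FA4 reads in one region and 3 FA0 reads and 34 FA4 reads in another. Arid1b and Kat2b each held 14 FA0 reads and 0 FA4 reads. Setd2, which methylates histone H3 within genes, held 0 FA0 reads and 20 FA4 reads, and Smarca4, a remodeling ATPase, 3 FA0 reads and 29 FA4 reads. In all Arid1b had 2 FA0-higher and 3 FA4-higher regions, Kat2b had 1 and 2, and Setd2 and Smarca4 each had 1 in either direction. The interval of the synaptic adhesion list lay below the 44.9% of all intron regions, and the intervals of the other lists held or touched that share.

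**Figure D5:**
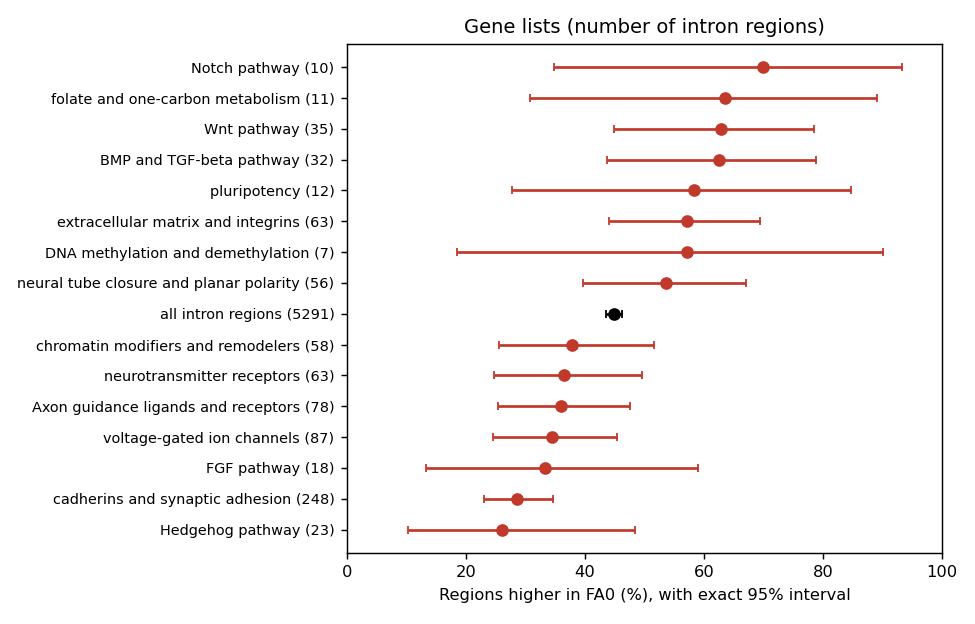
Percentage of intron regions higher in FA0 for each of 15 gene lists (red) and for all intron regions (black), with exact 95% intervals, and the number of regions in brackets. The synaptic adhesion list lies at 28.6% and the Notch list at 70%, against 44.9% for all 5291 intron regions.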

How the data were processed

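The authors deposited tables of regions with a normalized read count per library, a signal made of reads times 1 factor per library, and columns of their own fold changes, p-values and FDR, which were not used. A further 12 per-sample columns were not used. Among tools, the notes of the submitters list Bowtie2 2.2.4 and cutadapt 1.9.1, with mm10 as build. The sources used here do not give the caller of differential regions. Labels and methods differ on kits and fragment sizes, and the methods state looser thresholds than these tables show.

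Both whole-genome tables were joined, 26808 rows in all. All counts lay within 0.00576 reads of a whole read (tolerance 0.02). A G-test of both normalized counts against equal shares gave p of at most 9.86e-05 in every listed region. The smallest fold of any listed region was 2.01 (0.1 added to each count). The exact binomial test was two-sided, with 42.9% of reads in FA0 as the null share. Shares have Clopper-Pearson intervals. Each region took 1 host, an ordinary symbol before predicted, RIKEN and microRNA symbols and then the longest transcript (41 regions had several). All 3102 host symbols were matched to RefSeq, and 5235 of 5291 regions lay within the RefSeq span of their host.

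Named were the 12 regions per direction with the smallest exact p (1 per gene, without predicted, RIKEN and microRNA hosts), the 10 genes with most regions, up to 3 genes per list and direction, the 5 regions with most reads, the 2 per direction with fewest, and regions holding a microRNA hairpin, of which there were 0. Some genes that these rules pick are not reported here. Any other gene was named after its values were seen. Members and lists were chosen with earlier results of these data known. Of 1040 listed genes 41 are in more than 1 list. The exact test and the recomputed G-test were tried on simulated reads. Tests ran in scipy 1.17.1 with numpy 2.4.6 under Python 3.11.15, tables in pandas 2.3.3, and plots in matplotlib 3.10.9. Base composition of the regions was not computed, and intron numbers were not assigned.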

Additional observations from a re-analysis of the deposited data

How the results depend on the processing

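The share of intron regions higher in FA0, 44.9%, moved with test and scaling. It was 72.0% under the exact test, 46.4% with FA0 scaled up by 25%, 36.8% with FA4 scaled up by 25%, 22.4% with unscaled reads, 80.5% with at least 20 normalized counts and 48.5% with each host gene once per direction. FA0-higher regions then numbered 839 (unscaled) and 1009 (20 counts), and FA4-higher regions 689 (exact test), 245 (20 counts) and 1864 (each gene once). The cut at 20 normalized counts asks for more FA4 reads than FA0 reads, because an FA0 read counts 1.15 and an FA4 read 0.866. At 20 or more reads in the higher library there were 793 FA0-higher and 561 FA4-higher regions. The excess over intergenic regions kept its sign in every setting tried, at 10.8 points with FA4 scaled up and 7.59 unscaled at the lowest. Hosts under 50 kb exceeded those of 300 kb and over by 23.7 points, and by 19.7 under the exact test, 15.1 unscaled, 12.6 with 20 counts and 13.9 with each gene once. The cause was not tested. Merging within 1000 bp, a fold of 4, leaving out predicted, RIKEN and microRNA hosts, and host genes of at least 10 kb put the share between 43.9% and 46.1%. Leaving out the dense stretch of chromosome 4, chosen after seeing the data, gave 45.3%. No setting could add a region that was not listed. No paired analysis was possible because there is 1 library per condition. Most regions rest on few reads, so single regions near the threshold have wide intervals.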
